A study of Homo sapiens with 4 samples.

Results

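Genes that tell stomach from intestine were read by sequencing of messenger RNA in SNU638, a line of cells grown from a human gastric cancer. The 10 genes were taken by symbol from a table of 46427 genes, and they are CDX1, CDX2, SOX2, GATA6, MUC1, MUC13, TFF1, TFF3, VIL1 and CDH17. The 4 libraries came from cells with the control vector and from YTHDF1‐overexpressed cells, with biological replicates 1 and 2 of each. Every culture had been without serum for 24 h and then received IFN‐γ at 10 ng/ml, so no group was left untreated. The labels give 8 h on IFN‐γ. A longer time is stated in the paper. YTHDF1 is a reader of N6‐methyladenosine in RNA, and the general methods of the study describe plasmid transfection, whereas the labels do not say whether the overexpressing cells were transient or selected. Neither source says what a replicate number stands for or whether same-numbered cultures shared a passage or a day.

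The stomach and the intestine both grow from endoderm and are set apart by a few transcription factors. CDX1 and CDX2 are homeobox factors that switch on intestinal genes, and they are normally off in the stomach, where their appearance marks intestinal metaplasia. SOX2 is a factor of the foregut and of the gastric epithelium, and GATA6 works in the epithelium of both organs. Below these regulators stand products of mature cells, among them the gastric trefoil peptide TFF1, the intestinal trefoil peptide TFF3, the membrane mucins MUC1 and MUC13, the brush border protein villin (VIL1) and the intestinal cadherin CDH17.

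Total counts ran from 57398137 to 60864942 reads per library, and YTHDF1 itself had 82.2 and 80.3 CPM in the control libraries against 16489 and 2627 CPM in the YTHDF1 libraries numbered 1 and 2. CPM are read counts scaled by library size after TMM normalization. Libraries stood apart by replicate number rather than by vector. Across genes, which are not independent replicates, Pearson's r of log2 CPM was 0.985 and 0.983 between same-numbered libraries, and 0.885 and 0.888 between the replicates of control and of YTHDF1. Levels are therefore given for each library, and the libraries numbered 2 were compared with those numbered 1 with the vector in the model. The vectors were compared without the number. Of the 17781 genes tested, 14.5% differed between the numbers by at least 1 on the log2 scale and had an adjusted p under 0.05 (edgeR, quasi-likelihood F test, used for every p unless another is named), 3.72% as higher and 10.8% as lower in the libraries numbered 2. The filter asked for about 10 counts in at least 2 libraries, and 1488 genes reached it in both libraries numbered 1 but not in both numbered 2. For these genes the filter favoured, without forcing, a lower value in the libraries numbered 2. Of the 1925 lower genes, 1089 were of this kind. Among the 15685 genes that neither number alone carried into the test, 8.8% were called, 3.47% as higher and 5.33% as lower.

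The genes on which the results turn are CDX2, SOX2 and MUC13, and the 250 bases before their starts are shown from RefSeq (GRCh38.p14) because the first and the last were counted in the same libraries and SOX2 was higher in the others. Capitals mark the letters TTTAT, a core that CDX proteins are known to bind, on either strand. The windows are chr13:27969316-27969565 on the minus strand for CDX2, chr3:181711675-181711924 on the plus strand for SOX2 and chr3:124934752-124935001 on the minus strand for MUC13.
CDX2: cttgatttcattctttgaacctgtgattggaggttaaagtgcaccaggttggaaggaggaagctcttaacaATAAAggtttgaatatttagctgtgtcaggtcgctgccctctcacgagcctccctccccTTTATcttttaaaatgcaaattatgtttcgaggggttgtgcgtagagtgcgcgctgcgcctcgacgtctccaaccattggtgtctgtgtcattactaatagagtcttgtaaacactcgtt
SOX2: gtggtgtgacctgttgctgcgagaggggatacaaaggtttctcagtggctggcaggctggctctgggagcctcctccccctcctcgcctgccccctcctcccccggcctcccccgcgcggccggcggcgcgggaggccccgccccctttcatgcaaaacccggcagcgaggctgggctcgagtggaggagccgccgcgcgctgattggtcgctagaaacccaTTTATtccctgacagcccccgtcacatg
MUC13: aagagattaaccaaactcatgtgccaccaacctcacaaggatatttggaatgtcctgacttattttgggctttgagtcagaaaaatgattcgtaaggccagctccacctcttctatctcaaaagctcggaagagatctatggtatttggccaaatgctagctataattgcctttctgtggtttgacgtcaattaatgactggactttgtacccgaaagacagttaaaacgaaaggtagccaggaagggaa
These letters stood 2 times in the window of CDX2, 1 time in that of SOX2 and 0 times in that of MUC13, and 32.7% of 35116 promoter windows of this length hold them. TTTAT can be part of a TATA box read on the other strand, but TATAAA was in none of the 3 windows. Of the 10 genes, 5 had an entry in the promoter table.

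CDX2, the master regulator of the intestinal epithelium (NCBI Gene ID 1045), was well counted in the libraries numbered 1 and at the limit of detection in those numbered 2. It had 499 counts in control replicate 1 and 516 in YTHDF1 replicate 1, or 8.39 and 8.76 CPM. It had 0 counts in control replicate 2 and 3 in YTHDF1 replicate 2. The libraries of the numbers did not overlap, and the vectors shared this pattern. Within control it was at least 159-fold lower in replicate 2, with the count of 0 set to 3 counts. Within YTHDF1 the ratio of replicate 1 to replicate 2 was 176, with a 95% exact interval of 60.0 to 858 that covers counting error only, since reads are not independent molecules. The edgeR adjusted p between the numbers was 1.15e-07, and CDX2 passed the filter on low counts only through the libraries where it was high. In bulk RNA, fewer cells with CDX2 and less CDX2 RNA per cell cannot be told apart. CDX2 lies at chr13:27960918-27969315.

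CDX1, the close relative that CDX2 is known to accompany in the gut (Gene ID 1044), had 0 counts in all 4 libraries, so in the libraries numbered 1 CDX2 was counted and CDX1 was not. A count of 0 allows up to 3 counts here, or 0.0497 to 0.0529 CPM. Of the 8 other genes of the count table within 100 kb of CDX2, 3 were tested, and they were named after their values were seen. PDX1, a homeobox factor of the antrum, duodenum and pancreas, had 94 and 65 counts in the control and YTHDF1 libraries numbered 1 and 35 and 43 in those numbered 2, a log2 difference of −0.99 (standard error, SE, 0.31, edgeR adjusted p = 0.0225). FLT3, a receptor kinase of blood progenitors, had 17 and 14 counts in the libraries numbered 1 and 0 in both numbered 2. The pseudogene ATP5F1EP2 had 28 and 24 against 7 and 8 counts. FLT3 and ATP5F1EP2 entered the test only through the libraries numbered 1, so the filter favoured, without forcing, a lower value in those numbered 2. The difference of PDX1 did not reach the size of 1 asked for a call.

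SOX2 (Gene ID 6657, chr3:181711925-181714436) ran the other way. It had 520 and 454 counts in the control and YTHDF1 libraries numbered 1, or 8.74 and 7.71 CPM, and 1035 and 997 counts in those numbered 2, or 18.2 and 16.5 CPM. Mean levels were 8.23 ± 0.732 CPM (SD, n = 2) and 17.4 ± 1.23 CPM (SD, n = 2), and the libraries of the numbers did not overlap. SOX2 was 2.11-fold higher in the libraries numbered 2, a log2 difference of 1.08 (SE 0.086, edgeR adjusted p = 4.93e-06). The difference was 1.06 within control and 1.10 within YTHDF1. SOX2 lies inside the long non-coding gene SOX2-OT on the same strand, which had 24 to 48 counts and a log2 difference of 0.16 between the numbers (edgeR adjusted p = 0.754), and the pair shares 0 exon bases in GENCODE release 29.

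GATA6, a zinc finger factor of endoderm (Gene ID 2627, chr18:22169589-22202528), was present in every library. Its counts were 843 and 915 in the control and YTHDF1 libraries numbered 1 and 1020 and 1158 in those numbered 2, with means of 14.9 ± 0.962 CPM (SD, n = 2) and 18.6 ± 0.845 CPM (SD, n = 2). The libraries of the numbers did not overlap, and the difference was small, at 0.32 on the log2 scale (SE 0.075, edgeR adjusted p = 0.00512), which does not reach the size of 1 asked for a call.

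**Figure D1:**
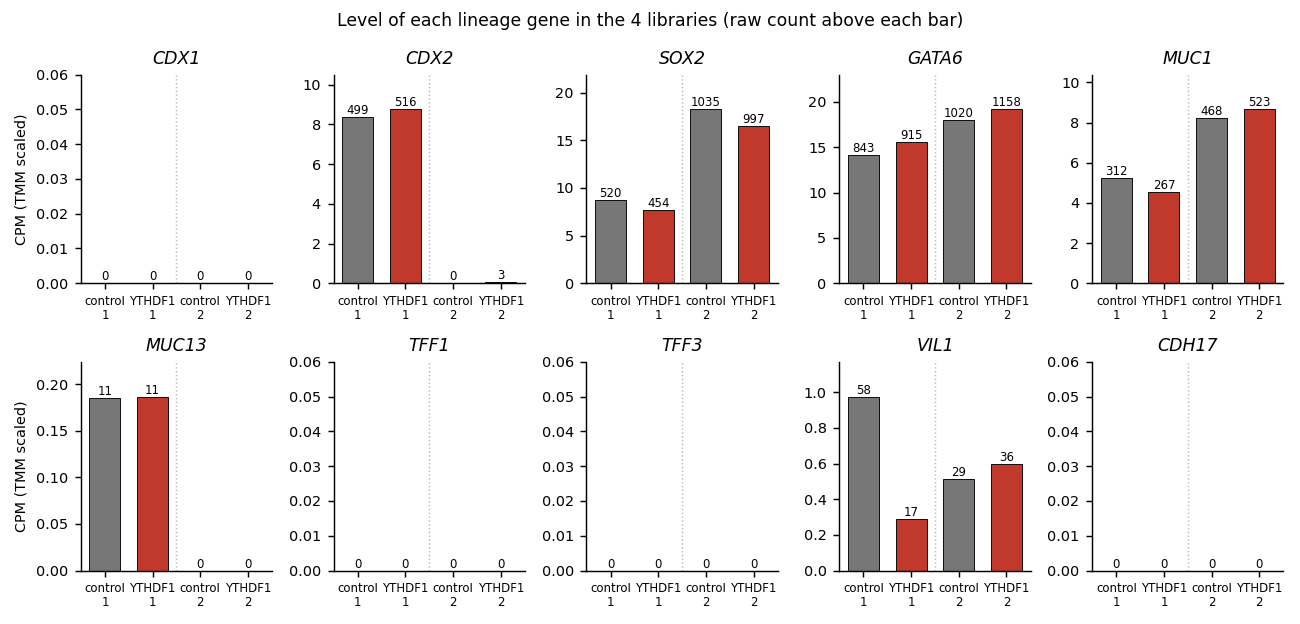
Each panel plots 1 gene, with CPM after TMM scaling on a linear axis from 0, 1 bar per library (grey for control, red for YTHDF1, replicates 1 left of the dotted line and replicates 2 right of it) and the raw count above each bar. CDX2 and MUC13 stand in the libraries numbered 1, SOX2 and MUC1 are higher in those numbered 2, and CDX1, TFF1, TFF3 and CDH17 are at 0 throughout.

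Among the mucins, MUC1 was the one well counted. It is a membrane mucin of gastric surface cells and of many other glandular epithelia (Gene ID 4582, chr1:155185824-155192915). It had 312 and 267 counts in the control and YTHDF1 libraries numbered 1 and 468 and 523 in those numbered 2, with means of 4.89 ± 0.504 CPM (SD, n = 2) and 8.45 ± 0.290 CPM (SD, n = 2). These libraries did not overlap, and MUC1 was 1.73-fold higher in the libraries numbered 2, a log2 difference of 0.79 (SE 0.13, edgeR adjusted p = 0.000703), under the size asked for a call. MUC13, a membrane mucin most abundant in the intestine (Gene ID 56667, chr3:124905442-124934751), had 11 counts in each library numbered 1 and 0 in each numbered 2. It was at least 3.50-fold lower within control and at least 3.76-fold lower within YTHDF1 (edgeR adjusted p = 0.0118). MUC13 too entered the test only through the libraries where it was counted. When all counted genes were kept, its adjusted p was 0.0662 in the same test, so its call rests on the filter.

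The trefoil peptides, which protect and repair mucous surfaces, were not detected on either side of the gastric and intestinal divide. TFF1 (Gene ID 7031, chr21:42362282-42366535), a product of gastric surface cells, had 0 counts in all 4 libraries. TFF3 (Gene ID 7033, chr21:42311667-42315409), a product of goblet cells, had 0 counts as well. CDH17, a cadherin of enterocytes that CDX2 is known to switch on (Gene ID 1015), also had 0 counts in all 4, including the 2 libraries with CDX2.

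Villin, the actin bundler of microvilli (VIL1, Gene ID 7429, chr2:218419123-218453295), was counted at a low level with no common direction. In control it had 58 and 29 counts in replicates 1 and 2, and with YTHDF1 it had 17 and 36. Its means were 0.632 ± 0.485 CPM (SD, n = 2) in the libraries numbered 1 and 0.554 ± 0.0601 CPM (SD, n = 2) in those numbered 2, and they overlapped, with a log2 difference of −0.028 (SE 0.51, edgeR adjusted p = 0.970). VIL1 shares 3045 exon bases in GENCODE with USP37 on the opposite strand, a gene with 2641 to 2850 counts. The strand setting of the counting is not given in the sources used here, so reads of these 2 genes cannot be told apart.

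Of the 10 genes, 4 were thus at 0 throughout and 6 were tested, and 3 of the 6 differed between the numbers by the rule that called 14.5% of all genes. CDX2 and MUC13 were lower and SOX2 was higher in the libraries numbered 2. CDX2 and MUC13 reached the test only through the libraries numbered 1, so the filter favoured, without forcing, a lower value in those numbered 2. With all counted genes kept, CDX2 differed by −8.27 (edgeR adjusted p = 0.000257) and MUC13 by −6.47 (edgeR adjusted p = 0.0662). Without CDX2 and MUC13, 1 of 4 genes was called, against 8.8% of all genes left by the same restriction. GATA6 and MUC1 had an edgeR adjusted p under 0.05 as well, as 51.8% of all genes did at any size of difference. The numbers did not overlap for 5 of the 6, against 77.1% of all genes tested, so a lack of overlap was common in this table.

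Levels were set against each other per kilobase of merged GENCODE exons, as CPM per kilobase. In the libraries numbered 1 the order was GATA6 (3.77), SOX2 (3.27), CDX2 (2.08), MUC1 (1.04), VIL1 (0.0913) and MUC13 (0.0531). GATA6, at 3.59 and 3.94, and SOX2, at 3.48 and 3.07, were close, and VIL1 ranged from 0.0417 to 0.141 around MUC13. In the libraries numbered 2 it was SOX2 (6.91), GATA6 (4.71), MUC1 (1.79), VIL1 (0.0800) and then CDX2 (0.0060), with MUC13 at 0. CDX2 therefore stood at a level of the same order as SOX2 in one pair of cultures and below VIL1 in the other, while SOX2 and GATA6 were the highest of the 6 in both.

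To place the 10 genes, further markers were listed by hand in 7 lists, which hold 107 genes of the count table, 36 of them with 0 counts in all 4 libraries. The gastric lists (regulators, surface mucous cells, gland cells) had 13 tested genes, and 3 of them were higher and 1 lower in the libraries numbered 2. Without the 10 genes it was 2 higher and 1 lower of 10. The intestinal lists (regulators, absorptive, goblet and secretory, stem cells) had 30 tested genes, with 3 higher and 13 lower, or 3 and 11 of 27 without the 10 genes. For comparison, 3.72% of all genes were called higher and 10.8% lower. Of the 13 lower intestinal genes, 7 had been tested only through the libraries numbered 1, namely CDX2, HNF4A, MUC13, USH1C, ANPEP, SPDEF and LYZ, and so had FUT2, the one lower gastric gene. Leaving out genes carried by 1 number alone, 3 of 22 intestinal genes were higher and 6 lower, and 3 of 11 gastric genes were higher and 0 lower, against 3.47% higher and 5.33% lower of all such genes. These shares describe the lists and were not tested, and they compare the same 2 pairs of libraries as the 10 genes do. After the restriction the lower intestinal genes were ELF3, KLF4, DPP4, RNF43, EPHB2 and PROM1, and the higher ones KRT20, LGR5 and TNFRSF19. Not all of these are specific to the intestine. ELF3 and KLF4 are factors of epithelia, and several stem cell genes mark glands of both organs.

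**Figure D2:**
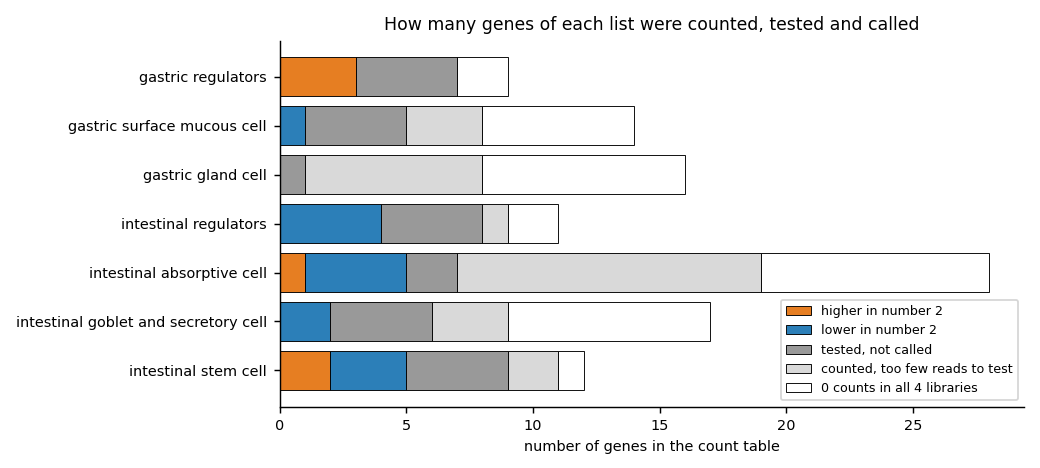
The horizontal bars give, for each of the 7 lists, the number of its genes in the count table, split into those higher (orange) or lower (blue) in the libraries numbered 2, tested without a call (grey), counted with too few reads to be tested (light grey) and at 0 counts in all libraries (white). Gastric gland, absorptive and goblet lists consist largely of genes at 0 or too low to test, while regulators and stem cell genes were mostly tested.

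Most gastric regulators other than SOX2 and GATA6 were present in both pairs of cultures, and PDX1 was the one tested with a negative difference. NKX6-3, a homeobox factor of the antrum, had 12.7 and 11.7 CPM in the control and YTHDF1 libraries numbered 1 and 25.0 and 25.3 CPM in those numbered 2 (log2 difference 1.04, SE 0.077, edgeR adjusted p = 2.78e-06). FOXA2, a pioneer factor of endoderm, had 1.29 and 1.51 against 3.74 and 3.99 CPM (log2 difference 1.46). GATA4 had 16.1 and 15.3 against 27.8 and 29.1 CPM and a log2 difference of 0.86, and it was named after its values were seen. The median of the 7 tested regulators was 0.86 on the log2 scale, against −0.012 over all genes. The list is not specific to the stomach. It holds GATA6, which works in both organs, FOXA2, a factor of endoderm, and PDX1, also of duodenum and pancreas. SOX21 and BARX1 had 0 counts in all 4 libraries.

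Most products of mature gastric cells were at 0 or too low to test, with 5 of 14 surface genes and 1 of 16 gland genes tested. GKN1, TFF2 and CLDN18, which mark surface cells, neck cells and gastric tight junctions, had 0 counts in all 4 libraries. MUC5AC, the secreted mucin of surface cells, had 14 to 18 counts per library and a log2 difference of 0.24 between the numbers (SE 0.55, edgeR adjusted p = 0.740). MUC6, the mucin of gland cells, had 0 to 8 counts. The summed level of the surface list, 140 and 150 CPM in the libraries numbered 1 and 293 and 272 CPM in those numbered 2, was mostly ANXA10, an annexin of gastric epithelium named after its values were seen, with 132 and 142 against 284 and 262 CPM. FUT2, which fucosylates mucin sugars, was the one lower gene of the surface list, with 163 and 178 counts in the libraries numbered 1 and 10 and 8 in those numbered 2, and it was tested only through the former.

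Intestinal regulators divided. HNF4A, a nuclear receptor of the gut and liver that works beside CDX2, had 67 and 87 counts in the control and YTHDF1 libraries numbered 1 and 4 and 3 in those numbered 2, and like CDX2 it was tested only through the former. ELF3, an epithelial ETS factor, had 32.9 and 38.5 CPM against 3.03 and 2.96 CPM, and KLF4, a factor of epithelial differentiation, had 13.5 and 16.8 against 3.17 and 3.10 CPM. Their log2 differences were −3.57 and −2.27 (edgeR adjusted p = 2.26e-09 and 3.51e-07), and both were counted well in every library. Of the 8 tested intestinal regulators, 6 were carried into the test by neither number alone, and ELF3 and KLF4 were the 2 of them that were lower, with 0 higher. Of all genes of this kind, 5.33% were lower and 3.47% higher. ISX, a homeobox factor that CDX2 is known to control, had 0 counts in all 4 libraries.

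Few absorptive cell genes had enough reads to be tested, 7 of 28. FABP1, the fatty acid binding protein of enterocytes, had 0 counts in all 4 libraries. USH1C, a scaffold of the brush border, had 335 and 308 counts in the control and YTHDF1 libraries numbered 1 and 7 and 16 in those numbered 2. The brush border peptidase DPP4 had 98 and 112 against 41 and 49 counts, a log2 difference of −1.21 (SE 0.26, edgeR adjusted p = 0.0032), and the peptidase ANPEP had 48 and 35 against 9 and 7. USH1C and ANPEP, like MUC13, were tested only through the libraries numbered 1. DPP4 was the 1 lower gene among the other 4. KRT20, a keratin of mature intestinal and gastric surface cells, was the one higher gene, with 29.6 and 29.9 CPM against 80.1 and 73.8 CPM and a log2 difference of 1.37. Of all genes that neither number alone carried into the test, 5.33% were lower and 3.47% higher.

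Of the goblet and secretory list, 2 of 6 tested genes were lower and 0 were higher in the libraries numbered 2, against 10.8% and 3.72% of all genes. Both lower genes had been tested only through the libraries numbered 1, and 0 of the 3 genes that neither number alone carried were called. SPDEF, a factor of goblet cells, had 14 and 12 counts in the control and YTHDF1 libraries numbered 1 and 3 and 0 in those numbered 2. LYZ, the lysozyme of Paneth cells and of leukocytes, had 19 and 22 against 0 and 3. MUC2, the secreted mucin of goblet cells, had 0 and 4 counts in the control and YTHDF1 libraries numbered 1 and 10 and 2 in those numbered 2, which overlap.

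Stem cell genes, several of which mark glands of both organs, went in both directions. LGR5, a receptor for Wnt-enhancing R-spondins, had 15 and 12 counts in the control and YTHDF1 libraries numbered 1 and 48 and 69 in those numbered 2 (log2 difference 2.10, SE 0.41, edgeR adjusted p = 0.00199). TNFRSF19 was higher too, by 1.69. RNF43, a ligase that removes Wnt receptors, had 57.8 and 55.4 CPM against 4.92 and 4.09 CPM, a log2 difference of −3.66. PROM1 and EPHB2 were lower as well, with log2 differences of −3.55 and −1.49. OLFM4 had 0 counts in 3 libraries and 3 in YTHDF1 replicate 2.

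**Figure D3:**
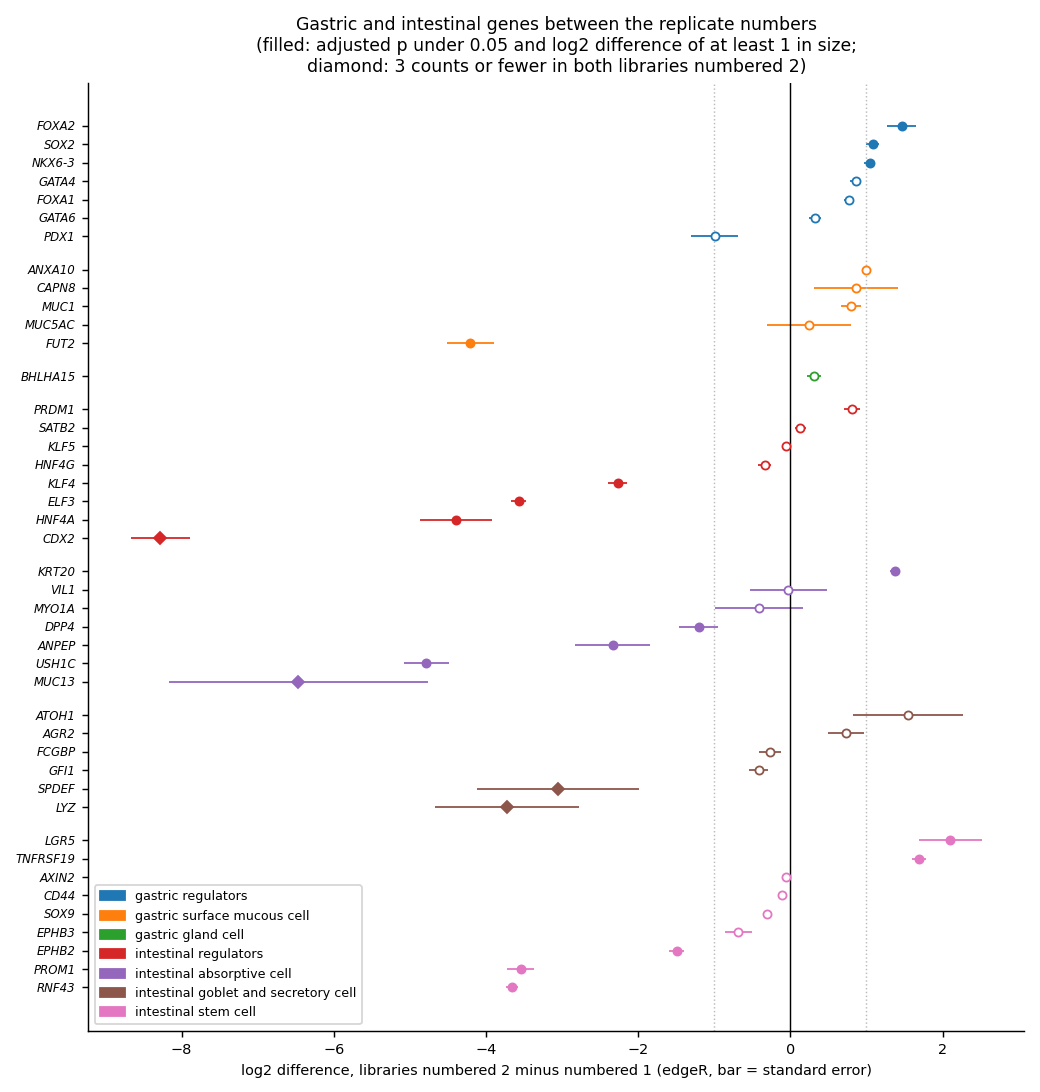
Points give the log2 difference of each tested gene of the 7 lists, libraries numbered 2 minus numbered 1, with the standard error as a bar, colours for the lists, filled symbols for called genes and diamonds for genes with 3 counts or fewer in both libraries numbered 2, whose fitted values depend on the prior count. CDX2, MUC13, HNF4A, USH1C, LYZ, RNF43, ELF3, PROM1 and SPDEF of the intestinal lists lie far to the left. FUT2 (−4.21) of a gastric list does too. All of these but RNF43, ELF3 and PROM1 were tested only through the libraries numbered 1. On the right, SOX2, NKX6-3 and FOXA2 of the gastric lists lie between 1.04 and 1.46. LGR5 (2.10), TNFRSF19 (1.69) and KRT20 (1.37) of the intestinal lists lie on the right as well.

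Markers of other tissues moved with the number as well, and their part in the results was not tested. For the counts below, 3.72% of all genes tested were called higher and 10.8% lower. The 12 general epithelial genes were all counted and tested, 1 higher and 2 lower in the libraries numbered 2, with a summed level of 4380 to 4576 CPM in the libraries numbered 1 and 6787 to 7106 CPM in those numbered 2. EPCAM, the defining surface protein of epithelia, differed by −0.18 on the log2 scale, from 265 and 284 CPM to 243 and 242 CPM. Other members went farther in both directions, and they were named after their values were seen. KRT8 and KRT18, the keratins that make up most of the sum, differed by 0.79 and 1.01, and KRT7 by 0.93. The junction protein CLDN4 went from a mean of 55.8 to 0.964 CPM (log2 difference −5.85), and GRHL2, ESRP1 and CDH1, which maintain epithelial identity or adhesion, differed by −1.63, −0.99 and −0.58. Of the fibroblast and mesenchymal list, COL1A2 and PDGFRA were at 0 throughout, the sum was 38.1 to 39.9 and 39.9 to 40.3 CPM, and 2 of 7 tested genes were lower. VIM had 12.8 and 12.5 CPM against 18.6 and 18.7 CPM. The matrix genes COL1A1 and FN1, named after their values were seen, went the other way, by −0.91 and −1.58. TWIST1, with 27 and 22 counts against 0 and 0, was tested only through the libraries numbered 1. The endothelial sum was 1.15 to 1.21 CPM in the libraries numbered 1 and 0.232 to 0.300 CPM in those numbered 2, with CLDN5 at 0 throughout and 3 of 4 tested genes lower, each of the 3 tested only through the libraries numbered 1. For the hepatocyte list it was 2.45 to 2.56 and 0.529 to 0.613 CPM, with AFP at 0 throughout and 1 of 2 tested genes lower, again tested only through those libraries. Leukocyte genes summed to 7.30 to 8.19 and 7.07 to 7.77 CPM, with CD3D, MS4A1 and NKG7 at 0 throughout. Of 4 tested, 1 was lower, which was LYZ, again tested only through the libraries numbered 1. Squamous genes summed to 3.31 to 3.82 and 2.82 to 3.51 CPM, with 0 of 8 at 0 throughout and 1 of 5 lower. EPCAM and the keratins were thus counted in every library. Of the 14 gastric surface genes, 6 were at 0 throughout, among them TFF1, GKN1 and CLDN18, while others, such as ANXA10 and MUC1, were counted in every library.

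Between YTHDF1‐overexpressed and control cells, which the libraries were made to compare, no lineage gene passed the test. With a log2 difference of at least 0.5 in size, 0 of the 6 tested genes had an edgeR adjusted p under 0.05 and 0 had an unadjusted p under 0.05, against 0% and 0.101% of all genes. DESeq2's Wald test also gave 0 of 6 at an unadjusted p under 0.05. Control and YTHDF1 libraries overlapped for each of the 6, whereas 11.5% of all genes did not overlap. YTHDF1 itself, at a log2 difference of 6.88, had an unadjusted p of 0.00613 in edgeR but an adjusted p of 0.999993. With the replicate number in the model, its edgeR adjusted p was 0.00216. On simulated counts, the comparison without the number recovered 48 of 200 genes changed 4-fold. It could therefore miss large differences, and a p that misses the threshold does not show that the genes were unchanged.

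SOX2 had a mean of 13.5 ± 6.72 CPM (SD, n = 2) in control cells. Its mean in YTHDF1‐overexpressed cells was 12.1 ± 6.22 CPM (SD, n = 2), a log2 difference of −0.16 (SE 0.58), with −0.18 within number 1 and −0.14 within number 2. GATA6 differed by 0.11 (SE 0.22), with 0.13 and 0.093 within the numbers. For MUC1 the difference was −0.033 (SE 0.47), with −0.21 within number 1 and 0.070 within number 2, where the signs differ. CDX2 could be compared within number 1 alone, where the difference was 0.062, since both libraries numbered 2 were at 3 counts or fewer. MUC13 had 11 counts in each library numbered 1, a difference of 0.013. VIL1 differed by −0.75 (SE 0.63), from −1.73 within number 1 and 0.22 within number 2. Within a number, the differences of SOX2, GATA6 and MUC1 between the vectors were each smaller than the difference of the same gene between the numbers.

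**Figure D4:**
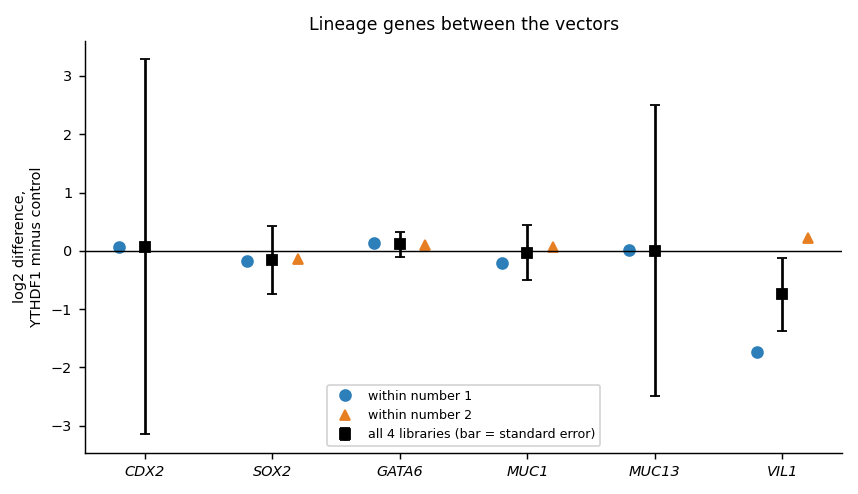
For each of the 6 tested genes the black square gives the log2 difference of YTHDF1 minus control over all 4 libraries with its standard error, and circles and triangles give the difference within number 1 and within number 2 (no triangle where both libraries had 3 counts or fewer). The bars of SOX2, GATA6, MUC1, CDX2 and MUC13 span 0, and that of VIL1 reaches from its value of −0.75 to just below 0.

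In the 7 marker lists, 0 of 43 tested genes had an unadjusted p under 0.05 between the vectors in edgeR or in DESeq2's Wald test, against 0.135% of all genes in edgeR. The limit of the edgeR comparison given above holds for these genes as well. Medians of the lists ran from −0.080 for absorptive cell genes to 0.24 for the gland list, which had 1 tested gene, against 0.0047 over all genes.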

How the data were processed

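Messenger RNA of SNU638 cells with the control or YTHDF1 vector was sequenced from stranded poly(A) libraries, 2 per vector. The authors deposited counts, whole numbers of reads per gene and library, unnormalized, for 46427 genes by NCBI Gene ID. The submitters' processing notes name Trimmomatic, HISAT2 and GRCh38, without roles or versions, and the counting tool and its strand setting are not given in the sources used here.

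The analysis used edgeR 4.0.16 under R 4.3.3, with filterByExpr, TMM and the quasi-likelihood test with Benjamini-Hochberg adjustment over 17781 genes. The number comparison had the vector as covariate, the vector comparison none. Within-number and within-vector differences are of log2 CPM with a prior count of 0.5. Positions and promoters are from RefSeq (GRCh38.p14) and exon lengths from GENCODE release 29. The replicates of a vector differed beyond sampling noise (chi-square per degree of freedom 147 in control and 179 in YTHDF1). Same-numbered libraries, which differ in vector, gave 73.8 for number 1 and 17.1 for number 2. Each library counted as a sample, but these values do not show that same-numbered libraries are independent cultures. If they are not, the SD and p between the numbers do not measure a spread between independent cultures. The labels call the replicates biological without naming separate cultures, so p-values measure the spread between these samples, which may be technical.

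The 10 genes and the marker lists were chosen with earlier results of these data known. By rule, the text names the 10 genes, YTHDF1, 13 defining markers and, per gastric or intestinal list and direction, up to 3 called genes of highest mean CPM. Other genes were named outside this rule. They are genes near or overlapping the 10, list genes at 0 counts in all 4 libraries, TWIST1, and those said to be named after their values were seen. Alternatives were the size factor method of DESeq2 as computed and tested in edgeR, and the Wald test of DESeq2 1.42.0. Further alternatives were other count filters, library sizes without YTHDF1, the other factor added or dropped, and each library left out. On simulated counts with 200 genes changed 4-fold, the number comparison recovered 198 with 4 false calls among 17319 genes, and the vector comparison 48 with 0 among 17398, or 198 with 0 among 17418 when the number was in the model.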

Additional observations from a re-analysis of the deposited data

Results flagged for a closer look

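VIL1 was the one gene of the 10 whose difference between the replicate numbers had opposite signs in the vectors. Libraries numbered 2 minus numbered 1 gave −0.92 on the log2 scale within control, from 58 and 29 counts, and 1.02 within YTHDF1, from 17 and 36 counts. The difference between these values was not tested, since a model with both factors and their interaction leaves no library for the spread.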

How the results depend on the processing

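The difference between the numbers kept its direction and call for SOX2 under each of the 6 alternatives with a test, and for CDX2 under the 5 that could test it. With at least 10 counts in every library, CDX2 and MUC13 were no longer tested and the number of called genes was 1 of 4 in place of 3 of 6, and in the marker lists it was 13 of 33 in place of 20 of 43, because fewer genes were tested. Over all genes this filter gave 1466 calls in place of 2587. Leaving out genes carried into the test by 1 number alone, a restriction chosen after seeing the data, gave 1 of 4 and 12 of 33, and 1380 of 15685 over all genes. MUC13 kept its direction but not its call without the filter (edgeR adjusted p = 0.0662). VIL1 turned to 0.032 with DESeq2's Wald test. Leaving out 1 library at a time left no spread between libraries, so the number comparison then gave values without a p. They ran from −11.9 to −7.39 for CDX2, 1.06 to 1.11 for SOX2, 0.30 to 0.34 for GATA6, 0.65 to 0.94 for MUC1 and −0.93 to 1.05 for VIL1. CDX2 has 0 counts in one library, so its fitted value depends on the prior count. MUC13 was from −6.49 to −6.45 in the 2 of these sets in which it was tested.

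The vector comparison called 0 of the 10 genes and 0 list genes at an unadjusted p under 0.05 and a log2 difference of at least 0.5 under every alternative run. Over all genes the same threshold gave 18 calls, 82 without the filter, 41 with the replicate block and DESeq2, and 47 to 60 without 1 library. Leaving out 1 library leaves an arm with 1 sample, assumed to vary like the other arm, and sets unequal shares of the numbers against each other. Values then ran from −6.34 to 11.0 for CDX2, −0.81 to 0.47 for SOX2, −0.056 to 0.29 for GATA6, −0.58 to 0.36 for MUC1, −0.98 to 0.98 for MUC13 and −1.37 to −0.21 for VIL1. MUC13 turned to −0.0027 when library sizes were taken without YTHDF1, and to −0.018 with the replicate block and DESeq2, an alternative chosen after seeing the data. Deviations of same-numbered libraries from their group means correlated at 0.875 across genes, but with 2 pairs and no label to explain the number this is a hint from the data and not the design. With the replicate block, calls over all genes at the unadjusted threshold went from 18 to 192, and the called genes among the 10 stayed at 0, with an unadjusted p of 0.0901 for SOX2 and 0.167 for GATA6 in edgeR. With the block, 198 of 200 simulated 4-fold changes were recovered, against 48 without it. The simulated counts kept the real differences between the numbers and took their noise from the model with the number, so a better result with the block was built in. Only genes with an average log2 CPM over 0 were changed, a level that VIL1 and MUC13 did not reach. In the marker lists 1 gene had an unadjusted p under 0.05 with the block, at a difference under 0.5, and 0 were called. At this depth a level under 0.0497 to 0.0529 CPM is not told from 0.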
